A study of Arabidopsis thaliana with 8 samples.

Results

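Genes on 2 stretches of the Arabidopsis thaliana genome were followed in inflorescence stems, one on chromosome 1 from locus AT1G06420 to AT1G11700 and one on chromosome 2 from AT2G01060 to AT2G06090. Each stretch held 250 measured genes, 500 of the 13286 genes that could be named on the array. A gene was represented by its brightest probe set among those that the platform annotation pairs with 1 gene only. The stretches are windows of 250 neighbouring measured genes and were picked because many of their genes differed between stems of the F5H overexpressor and wild type. The values of that comparison therefore chose the members and are given here as a description, without a test. The chromosome 1 stretch holds 578 protein-coding genes in the gene table used and the chromosome 2 stretch 463, so only part of each was seen.

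The study measured stems of plants 1.5 months old, all labelled as ecotype Columbia-0, in which ferulate/coniferaldehyde 5-hydroxylase (F5H) was altered. F5H is the cytochrome P450 enzyme that directs lignin precursors towards syringyl lignin. The groups were 3 arrays of wild type (WT), 3 of the overexpressor labelled F5H-OE and 2 of the line labelled as F5H loss of function, fah-1, each array from the pooled stems of 5 plants. The sources used here name neither the promoter behind the overexpression nor the number of independent lines. Both comparisons with WT share the WT arrays.

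Locus names in this species number the genes in order along a chromosome, so that genes with close numbers are neighbours. Neighbouring genes are often tandem copies of a family, as with the 2-oxoglutarate oxygenases and UDP-glycosyltransferases of the chromosome 1 stretch or the defensins and multidrug transporters of the chromosome 2 stretch. Otherwise neighbours mostly have unrelated roles, and both stretches mix enzymes, kinases, transport proteins, transcription factors and genes of unknown role.

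Median intensities were alike on all arrays, from 112.0 to 118. F5H-OE replicate 1 stood apart, with correlations of log2 values of 0.985 and 0.988 with the other F5H-OE arrays, which correlated at 0.997 with each other. There the GAPDH controls, which report on RNA quality, were brighter at the 3′ than at the 5′ end by 1.47 (log2), against 0.51 to 0.85 on the other arrays. No probe set is paired with F5H in the annotation used, so the targeted transcript could not check the labels. Of 11 secondary wall markers of stem 3 were measured (IRX10, listed as GUT2, IRX15 and IRX15-L), with summed intensities of 4032 to 5379 in WT, 4520 to 5485 in F5H-OE and 3278 to 3427 in fah-1, where they lay below every WT array. The 1 photosynthetic marker measured (RCA) had intensities of 10149 to 11119 over all arrays and the 1 root marker (PYK10) of 11.5 to 13.6. The 4 pollen markers summed to 273 to 320 in WT, 245 to 335 in F5H-OE and 333 to 352 in fah-1, where they lay above every WT array. Among single genes, 22.5% of all showed no overlap of fah-1 with WT. Nothing is therefore read from the place of the wall and pollen sums in fah-1. No flower, seed or silique marker was measured. The part of these differences in the results was not tested.

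In the chromosome 1 stretch 17 of 250 genes differed between F5H-OE and WT, 8 higher and 9 lower, at an adjusted p under 0.05 by limma, which is the meaning of "called", "rose" and "fell" below. In the chromosome 2 stretch 17 of 250 differed as well, 11 higher and 6 lower. Over all 13286 genes the share called was 2.39%, with 1.14% higher and 1.25% lower, but since the stretches were chosen on these calls nothing is read from the difference. The median log2 fold change was -0.03 in the chromosome 1 stretch and -0.04 in the chromosome 2 stretch, against -0.03 over all genes. The plot along the stretches shows the fold change of every member.

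**Figure D1:**
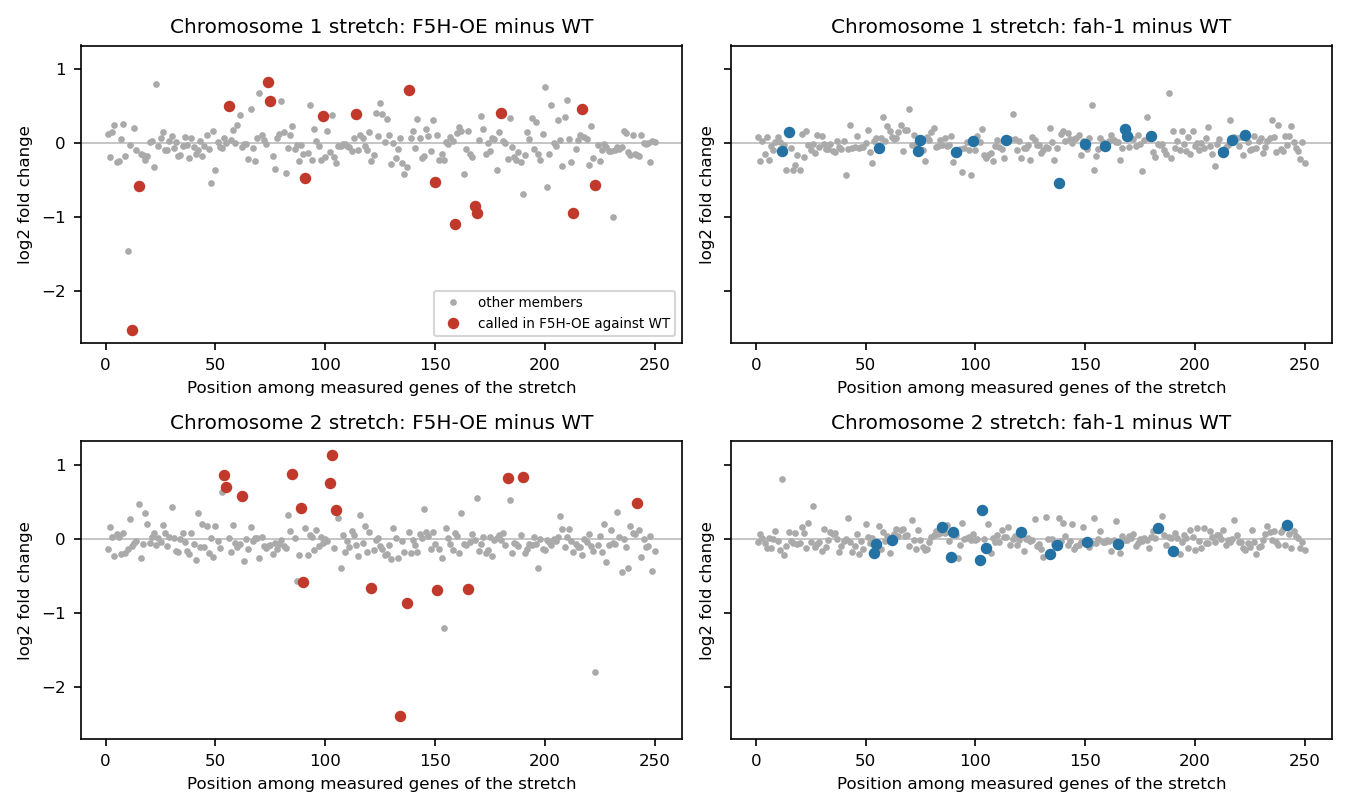
Log2 fold change (vertical axis) of each of the 250 measured genes of a stretch against its position among them (horizontal axis), for F5H-OE minus WT on the left and fah-1 minus WT on the right. Large points are the 17 genes per stretch called in F5H-OE against WT; in fah-1 the same genes lie between -0.54 and 0.40.

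Levels differed between the stretches before any comparison. The median WT level was 6.97 (log2 intensity) in the chromosome 1 stretch, 5.09 in the chromosome 2 stretch and 6.40 over all genes. On no array did 46 of the 250 genes of the chromosome 2 stretch exceed the TrpnX control probe sets, taken as the level of no signal, against 5 of 250 on chromosome 1. The gene table lists 51 members of the chromosome 2 stretch as pseudogenes, 24 of them in its last block of 50 genes, and 24 of the 51 were among those never above the control level. All 34 called genes exceeded the control level on all arrays, and all but AT1G10160, listed as a pseudogene, are protein-coding. The chromosome 2 calls thus fell on 17 of its 199 protein-coding genes and on 0 of its 51 pseudogenes. With a share called of 2.39% over all genes, few calls would fall among 51 genes, so nothing is read from the 0.

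The largest fall on chromosome 1 was that of AT1G06640, of the 2-oxoglutarate and iron-dependent oxygenase family, whose members oxidise small molecules. Its log2 intensities were 10.31, 10.08 and 9.69 in WT, 7.74, 7.45 and 7.30 in F5H-OE, and 10.01 and 9.83 in fah-1. F5H-OE lay far below all other arrays, and fah-1 lay inside the WT range. The log2 fold change in F5H-OE was -2.53 ± 0.17 (SE, n = 3 in each group), a 5.76-fold difference, and in fah-1 -0.11 ± 0.19 (SE, n = 2 and 3). Measured relatives in the same tandem group differed from it. AT1G06650 had a log2 fold change of 0.21 in F5H-OE. AT1G06620 was at 7.38, 7.67 and 7.29 in WT and at 7.47, 4.86 and 5.62 in F5H-OE, so that replicate 1 lay within the WT range and the other arrays well below it. It missed the threshold at -1.46 (log2), and without F5H-OE replicate 1 it passed at -2.21. Probes for such related genes can share target sequence, and to what degree they did here was not tested.

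AT1G09910 encodes a protein of the rhamnogalacturonate lyase family, enzymes that cut a pectin backbone of the cell wall. It was at 8.02, 8.31 and 8.28 in WT, 7.01, 7.21 and 7.11 in F5H-OE, and 8.16 and 8.15 in fah-1. The F5H-OE arrays lay together below all others, with a log2 fold change of -1.10 ± 0.10 (SE), and fah-1 was at -0.05 ± 0.11. It was the 1 gene called of 8 measured on the chromosome 1 wall list. The others included AT1G09890 of the same lyase family at 0.08, the pectin methylesterase gene AT1G11590 at 0.11, whose mean WT level of 3.09 was below the control level, and XTH33, a xyloglucan-modifying enzyme, at -0.12.

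Among other enzymes of the chromosome 1 stretch, AT1G06690 of the NAD(P)-linked oxidoreductase family was at 7.40, 7.46 and 7.65 in WT, 6.72, 7.10 and 6.93 in F5H-OE and 7.67 and 7.63 in fah-1. It fell by 0.58 (log2) in F5H-OE. AT1G07380, a neutral ceramidase, which releases the acyl chain from ceramide lipids, was at 7.59, 7.67 and 7.62 in WT, 8.01, 8.17 and 8.19 in F5H-OE, and 7.62 and 7.51 in fah-1. GSTU18 (AT1G10360), which encodes a glutathione S-transferase of the tau class, had levels of 8.84, 8.76 and 8.76 in WT, 9.09, 9.22 and 9.28 in F5H-OE, and 8.95 and 8.81 in fah-1. These were tight differences of 0.50 ± 0.08 and 0.41 ± 0.08 (log2 fold change, SE), without overlap of F5H-OE and WT. AT1G08210, an aspartyl protease family gene, fell by 0.47.

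HTB1 (AT1G07790), which encodes histone H2B of the nucleosome core, rose most on chromosome 1. It was at 8.20, 8.13 and 7.73 in WT, 8.70, 8.96 and 8.89 in F5H-OE, and 7.78 and 8.04 in fah-1, a log2 fold change of 0.83 ± 0.14 (SE) in F5H-OE and -0.12 ± 0.16 in fah-1. Histone genes are near-identical copies, so the signal cannot be given to this copy alone. Its immediate measured neighbour AT1G07795 rose too, from 6.72, 6.82 and 7.02 in WT to 7.45, 7.35 and 7.47 in F5H-OE, with 6.96 and 6.84 in fah-1. The other measured members of the histone and cell division list stood at 0.01 for the linker histone gene AT1G06760 and -0.03 for AT1G08170 (log2 fold change in F5H-OE).

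For 3 called genes of the chromosome 1 stretch, the kinase gene AT1G09440, AT1G10140 and AT1G11200, fah-1 and F5H-OE lay on opposite sides of WT without overlap. Lack of overlap of fah-1 with WT, in either direction, was seen for 22.5% of all genes. The share with fah-1 and F5H-OE on opposite sides was not counted, so nothing is read from the 3. AT1G09440 was the one with fah-1 below WT. Its levels were 8.92, 8.53 and 8.56 in WT, 9.30, 9.39 and 9.46 in F5H-OE, and 8.17 and 8.09 in fah-1. The log2 fold change was 0.71 ± 0.11 (SE) in F5H-OE and -0.54 ± 0.13 (SE) in fah-1. The fah-1 difference had an unadjusted p of 0.0027 by limma and an adjusted p of 0.898 over all probe sets, so it did not pass. It was the 1 called of 15 measured kinases and receptors. The S-locus-type receptor kinase gene AT1G11330 was at 8.78, 8.55 and 8.76 in WT and 8.76, 7.22 and 7.11 in F5H-OE. Only replicate 1 lay at the WT level, and the log2 fold change of -1.0 moved to -1.53 and passed without it.

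Of the other called genes on chromosome 1, PRA1.E (AT1G08770), of a family that acts on Rab proteins in membrane traffic, rose by 0.40 ± 0.08 and AT1G08350, of the endomembrane protein 70 family, by 0.36 ± 0.07 (log2, SE). AT1G11200, of the DUF300 family, fell by 0.56 ± 0.08 and AT1G09680, a pentatricopeptide repeat gene of the family that processes organelle RNA, by 0.53 ± 0.11 (log2, SE). In fah-1 all 4 were within 0.12 of WT (log2).

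Of the remaining chromosome 1 genes no role is given here. AT1G10140 and AT1G10160 are next to each other among the measured genes and both fell. AT1G10140 was at 10.65, 10.74 and 10.71 in WT, 10.30, 9.68 and 9.54 in F5H-OE and 10.89 and 10.87 in fah-1. AT1G10160 was dim, at 5.35, 4.97 and 5.34 in WT, 4.29, 4.25 and 4.28 in F5H-OE and 5.22 and 5.41 in fah-1. F5H-OE replicate 1 was the array nearest to WT for AT1G10140, whereas the F5H-OE arrays of AT1G10160 were almost equal. AT1G10990 was at 7.91, 8.37 and 8.18 in WT, 7.57, 7.09 and 6.96 in F5H-OE, and 7.83 and 8.24 in fah-1. AT1G11070 was at 4.61, 4.79 and 4.87 in WT, 5.22, 5.25 and 5.20 in F5H-OE and 4.92 and 4.67 in fah-1. Here too no F5H-OE array overlapped with WT, with log2 fold changes of -0.95 ± 0.19 and 0.46 ± 0.10 (SE).

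**Figure D2:**
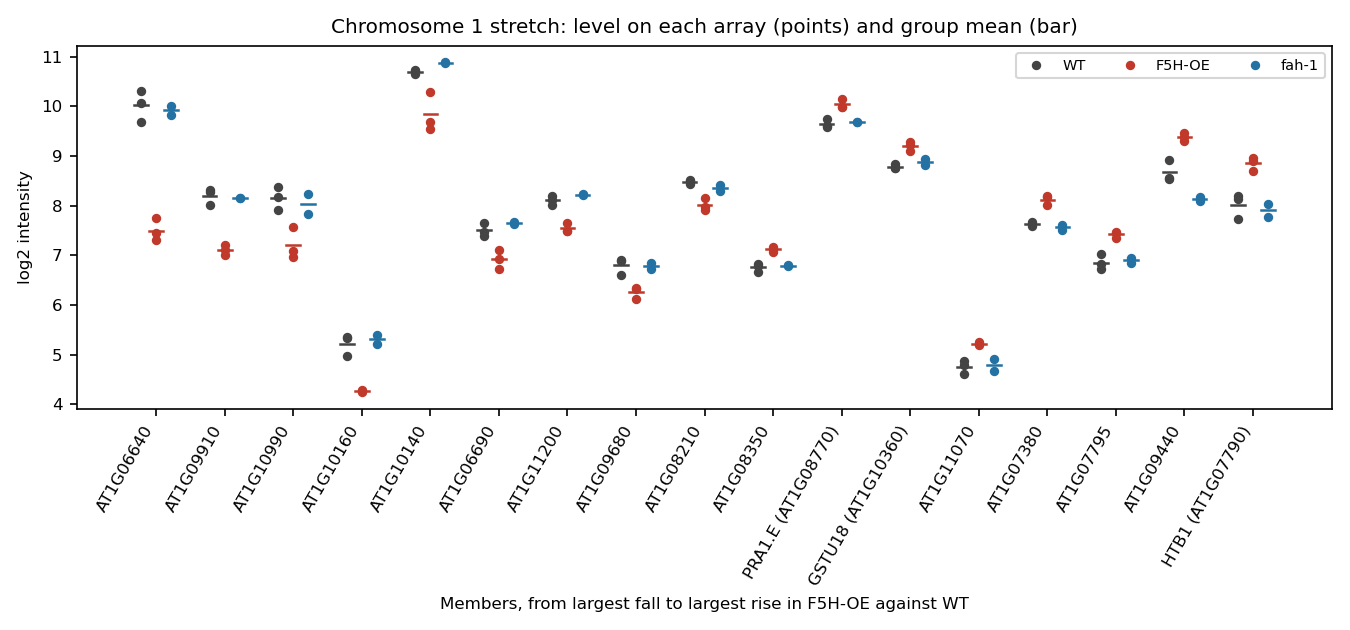
Log2 intensity (vertical axis) on each array for the 17 genes of the chromosome 1 stretch called in F5H-OE against WT, ordered from AT1G06640 to HTB1 by log2 fold change. Points are arrays (3 WT, 3 F5H-OE, 2 fah-1) and bars are group means; the F5H-OE points lie outside the WT and fah-1 points for all 17 genes.

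In the chromosome 2 stretch the largest fall was that of AT2G03980, a GDSL-type lipase or esterase gene of a large family of secreted hydrolases. It was at 7.75, 7.76 and 7.90 in WT, 5.38, 5.60 and 5.23 in F5H-OE, and 7.55 and 7.63 in fah-1. All F5H-OE arrays lay far below the rest. The log2 fold change was -2.40 ± 0.11 (SE), a 5.29-fold difference, while fah-1 was at -0.21 ± 0.12. A second gene of this family, AT2G04570, was at 5.92, 6.02 and 5.88 in WT, 5.20, 5.53 and 5.07 in F5H-OE and 5.84 and 5.91 in fah-1, and fell by 0.67. AT2G03550, an alpha/beta hydrolase of the carboxylesterase type, was at 8.69, 8.61 and 8.50 in WT, 7.95, 8.01 and 7.86 in F5H-OE and 8.57 and 8.81 in fah-1, and fell by 0.66 (log2).

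The defensin genes lie side by side, and their products are small cysteine-rich secreted peptides, many of them antimicrobial. PDF2.1 (AT2G02120) was at 4.98, 5.07 and 4.92 in WT, 5.99, 6.02 and 5.56 in F5H-OE, and 4.59 and 5.01 in fah-1. LCR68 (AT2G02130) was far brighter on its own probe set and rose by 0.70 ± 0.13 (log2, SE), from an intensity of 1463 ± 257 to 2357 ± 14.6 (SD, n = 3 each), with 1380 ± 133 (SD, n = 2) in fah-1. Of 4 measured defensin genes these 2 rose. LCR69 missed the threshold at 0.64 (log2), with 9.88 on F5H-OE replicate 1 and 9.33 and 9.18 on the others against 8.76 to 8.87 in WT, and passed at 0.43 without that array. LCR72, next to LCR68, stood at 0.01, but its mean WT level of 4.15 was close to the control level of 3.65 to 3.93 on the WT arrays.

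AT2G03200, AT2G03240 and AT2G03270 formed the densest run of rises in either stretch, at positions 102, 103 and 105 among the measured genes. AT2G03200, an aspartyl protease family gene, was at 10.50, 10.19 and 9.97 in WT, 10.89, 10.99 and 11.05 in F5H-OE, and 10.04 and 9.83 in fah-1. AT2G03240, of the EXS domain family of the phosphate exporter PHO1, was at 6.77, 6.6 and 6.70 in WT, 8.22, 7.68 and 7.59 in F5H-OE, and 7.36 and 6.82 in fah-1. It showed the largest rise in either stretch, 1.14 ± 0.19 (log2, SE). Both fah-1 arrays lay above WT for it, at 0.40 ± 0.21 (adjusted p = 0.965 by limma), and below F5H-OE. AT2G03270 rose by 0.39 ± 0.08.

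AT2G02780, a leucine-rich repeat receptor kinase gene, was at 6.09, 5.91 and 5.87 in WT, 6.68, 7.05 and 6.77 in F5H-OE and 6.23 and 6.01 in fah-1. It was the 1 called of 4 measured kinases and immune receptors of the chromosome 2 list. AT2G04850, annotated as auxin-responsive, was at 8.87, 8.55 and 8.49 in WT, 9.17, 9.63 and 9.62 in F5H-OE, and 8.45 and 8.50 in fah-1, and rose by 0.83 ± 0.15 (log2, SE). AT2G04790, with no role given here, rose by the same amount with less spread (0.83 ± 0.07), from 6.34, 6.19 and 6.25 in WT to 7.05, 7.14 and 7.06 in F5H-OE, with 6.40 and 6.41 in fah-1. For all 3 genes every F5H-OE array exceeded every other array.

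bZIP48 (AT2G04038), a basic leucine zipper transcription factor, was dim and fell by 0.86 ± 0.12 (log2, SE), from 5.05, 5.01 and 5.18 in WT to 4.35, 4.22 and 4.08 in F5H-OE, with 4.78 and 5.20 in fah-1. It was the 1 called of 7 measured transcription factors of the stretch, among which BPC1 stood at 0.17 and the MADS-box gene AGL30 at -0.22. AT2G02960, a RING-type zinc finger gene, was at 9.17, 8.98 and 9.21 in WT, 8.55, 8.48 and 8.57 in F5H-OE and 9.10 and 9.33 in fah-1. AT2G04340, with no role given here, was at 8.22, 8.31 and 8.41 in WT, 7.52, 7.70 and 7.66 in F5H-OE, and 8.26 and 8.29 in fah-1. Both fell without overlap with the other groups, by 0.58 and 0.69 (log2).

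The subtilase gene AT2G05920, a secreted serine protease, rose by 0.49 ± 0.09 and was the 1 called of 6 measured wall and apoplast genes of the chromosome 2 stretch, among which the expansin gene EXPA15 stood at 0.02 and the xyloglucan enzyme gene EXGT-A3 at -0.29 (log2). AT2G02370, of the SNARE-associated Golgi protein family, rose by 0.59 ± 0.07 and AT2G02880 by 0.42 ± 0.08 (log2, SE). Large differences that did not pass were those of AT2G05540, a glycine-rich protein gene, at -1.80 and AT2G04400, which encodes indole-3-glycerol phosphate synthase of tryptophan synthesis, at -1.20. AT2G05540 was at 9.84, 9.41 and 11.10 in WT and 8.98, 8.12 and 7.86 in F5H-OE, and AT2G04400 at 9.99, 10.53 and 10.34 in WT and 9.76, 8.59 and 8.91 in F5H-OE. F5H-OE replicate 1 was the array nearest to WT for both, and without it they passed at -2.13 and -1.54.

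**Figure D3:**
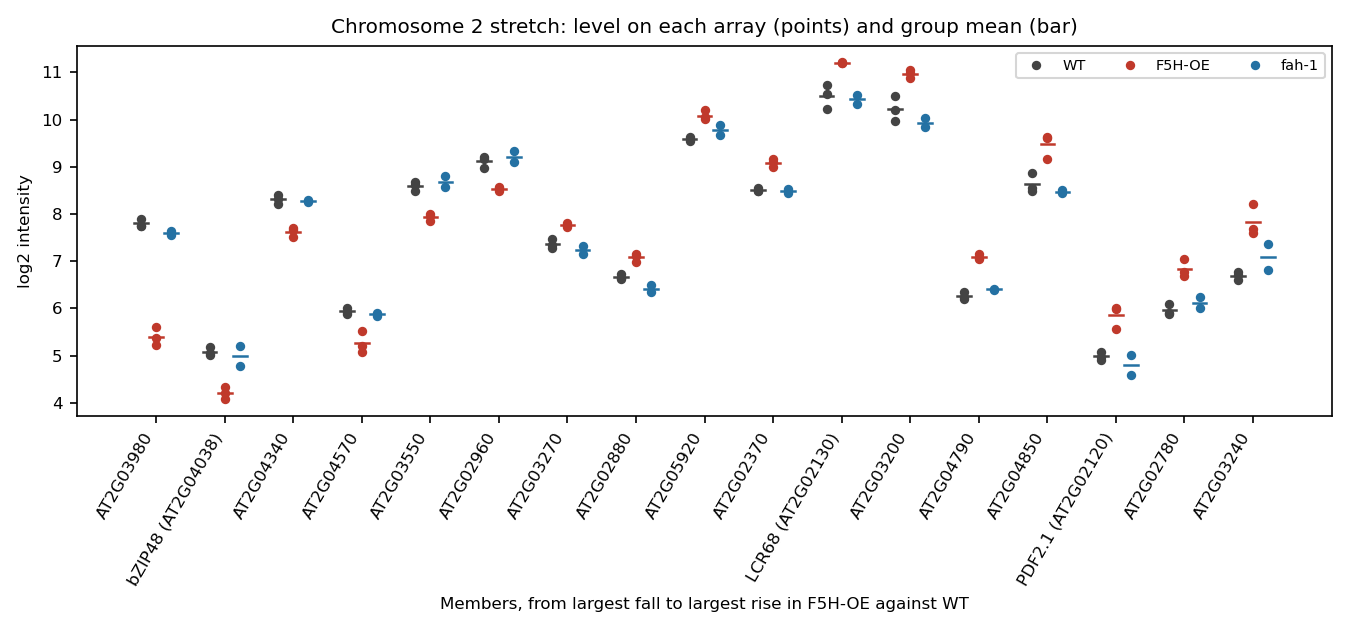
Log2 intensity (vertical axis) on each array for the 17 genes of the chromosome 2 stretch called in F5H-OE against WT, ordered from AT2G03980 to AT2G03240 by log2 fold change. Points are arrays (3 WT, 3 F5H-OE, 2 fah-1) and bars are group means; the F5H-OE points lie outside the WT and fah-1 points for all 17 genes.

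Within the chromosome 1 stretch the called genes were spread from position 12 to position 223. Successive blocks of 50 measured genes held 2, 5, 3, 4 and 3 of them. The first block held falls only (2), the second mostly rises (4 of 5) and the fourth mostly falls (3 of 4). In the chromosome 2 stretch the blocks held 0, 6, 6, 4 and 1. The first 53 measured genes, up to AT2G02100, held no call, and 16 of the 17 lay between positions 54 and 190. From one called gene to the next there was a median of 10 positions on chromosome 1 and 9.5 on chromosome 2. Directly adjacent calls were AT1G07790 with AT1G07795 and AT1G10140 with AT1G10160, and on chromosome 2 AT2G02120 with AT2G02130, AT2G02880 with AT2G02960 and AT2G03200 with AT2G03240. The pair AT2G02880 and AT2G02960 differed in opposite directions, and the other adjacent pairs in the same. Over all successive called genes the direction was the same in 8 of 16 pairs on chromosome 1 and 12 of 16 on chromosome 2. The share outside the stretches was not computed, so nothing is read from these counts.

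**Figure D4:**
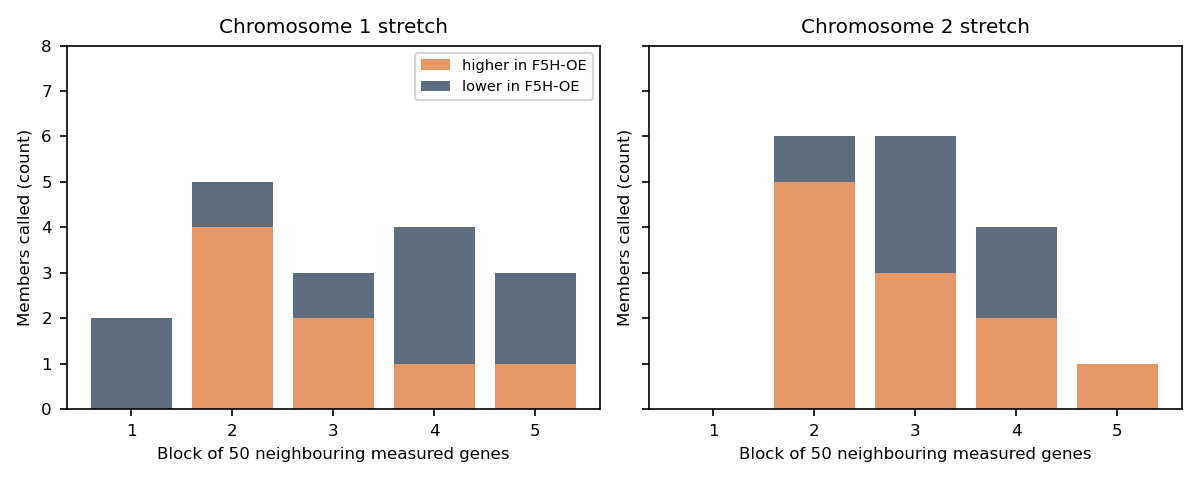
Number of genes called in F5H-OE against WT (vertical axis, count) in each of the 5 successive blocks of 50 measured genes of each stretch (horizontal axis), split into genes higher and lower in F5H-OE. The first chromosome 2 block holds 0 calls and the next 2 hold 6 each.

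The ends of the stretches are those of the windows. On chromosome 1 the first member AT1G06420 had a log2 fold change of 0.13 ± 0.21 in F5H-OE and the gene before it, AT1G06380, of -0.41 ± 0.16 (SE). The last member AT1G11700 was at 0.01 ± 0.20 and the gene after it, AT1G11710, at 0.05 ± 0.11. The 250 measured genes before this stretch held 13 calls (5.2%) and the 250 after it 9 (3.6%). AT2G01060 is the first measured gene of chromosome 2, at -0.14 ± 0.07. The last member AT2G06090 was at -0.16 ± 0.07 and the next gene AT2G06110 at 0.04 ± 0.09, and the 250 genes after it held 8 calls (3.2%).

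Falls were larger than rises on chromosome 1, with medians of -0.86 over the 9 genes that fell and 0.48 over the 8 that rose (log2 fold change). On chromosome 2 the medians were -0.68 over 6 and 0.75 over 11, and among all genes called they were -0.74 and 0.74. These are medians of few genes that passed a threshold, and the difference between falls and rises was not tested. Among called genes a fold above 2 was reached by AT1G06640 and AT1G09910 on chromosome 1 and by AT2G03980 and AT2G03240 on chromosome 2. The F5H-OE arrays did not overlap with WT for any of the 34 called genes, which 20.5% of all genes also showed, nor with WT and fah-1 together, as in 13.3% of all genes. Over the whole array the first held for all 317 called genes and the second for 303. Lack of overlap thus goes with being called and is no trait of the stretches. F5H-OE replicate 1 was the F5H-OE array closest to the WT mean for 10 of the 17 called genes on chromosome 1 and 7 of 17 on chromosome 2. Over all genes this held for 144 of the 317 called, so it is not read as a trait of the stretches.

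The counts depended on single arrays. Directions could not, since for every called gene all F5H-OE arrays lay on the same side of all WT arrays. Without F5H-OE replicate 1, 33 genes were called on chromosome 1 and 26 on chromosome 2, and among all probe sets the share called rose from 2.65% to 7.73%. Without WT replicate 2 the counts were 3 and 9, without WT replicate 3 they were 5 and 6, without F5H-OE replicate 2 they were 7 and 9, and without F5H-OE replicate 3 they were 4 and 7. Without either fah-1 array, which enters this comparison only through the estimate of spread, they were 8 and 11. The calls of AT1G06640, AT1G09910 and AT1G10160 on chromosome 1 and of AT2G02370, AT2G02780, AT2G03980, AT2G04340 and AT2G04790 on chromosome 2 held in all 17 alternatives. After recentring of every array 6 were higher and 9 lower on chromosome 1 and 10 higher and 8 lower on chromosome 2.

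Setting fah-1 against WT asks how the same genes stand in a line without F5H function. It shares the WT arrays that entered the choice of the stretches, and the fah-1 arrays entered that choice through the estimate of spread, so it is not independent of it. limma called 0 of 250 genes in each stretch, against 1 of 13286 genes (0.00753%) and 0.00879% of probe sets in all, and 0 also in each of the 17 alternatives. At an unadjusted p under 0.05 there were 9 genes in each stretch (3.6%), against 600 of 13286 genes (4.52%) and 5.02% of probe sets. The median log2 fold change was -0.02 in the chromosome 1 stretch, -0.01 in the chromosome 2 stretch and -0.02 over all genes. Among the 34 genes called in F5H-OE, fah-1 log2 fold changes ran from -0.54 to 0.18 on chromosome 1 and from -0.28 to 0.40 on chromosome 2. Both fah-1 arrays lay inside the WT range for 7 of the 17 genes on chromosome 1 and for 2 of 17 on chromosome 2, against 82 of the 317 genes called in all.

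The 9 chromosome 1 genes at an unadjusted p under 0.05 were all lower in fah-1, as were 397 of the 600 such genes in all. Among the smallest p were those of AT1G06720 at -0.37 ± 0.09, the nuclear helicase gene NIH (AT1G06670) at -0.36 ± 0.08, AT1G09440 and AT1G06730 at -0.30 ± 0.08 (log2, SE, adjusted p = 0.898 by limma for all 4). NIH, AT1G06720 and AT1G06730 are near neighbours, and in F5H-OE they stood at -0.10, -0.17 and -0.23. The smallest p among genes above WT were those of AT1G11590 at 0.23, XTH33 at 0.68, AT1G07485 at 0.22, AT1G07590 at 0.15 and FATB, a thioesterase of fatty acid synthesis, at 0.20 (adjusted p = 0.965 by limma for all 5). With each array recentred, 2 genes were higher and 8 lower at this level, against 332 higher and 239 lower in all.

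On chromosome 2, 5 genes were higher and 4 lower in fah-1 at an unadjusted p under 0.05, against 203 higher and 397 lower in all. The higher ones were AT2G04039 at 0.28 ± 0.08, AT2G03750 of the sulfotransferase family at 0.26 ± 0.08, AT2G04800 at 0.30 ± 0.12, the tetraspanin gene TET13 at 0.30 ± 0.12 and AT2G04060 at 0.22 ± 0.09 (log2, SE, adjusted p by limma 0.928 to 0.965). The lower ones were AT2G04580 at -0.19, AT2G02880 at -0.24, AT2G03810 at -0.25 and the WRKY factor gene ZAP1 at -0.20 (adjusted p = 0.951 by limma for all 4), followed by AT2G01330 at -0.22 (0.965). AT2G02880 was thus on opposite sides of WT in the lines, at 6.63, 6.64 and 6.73 in WT, 6.98, 7.16 and 7.12 in F5H-OE and 6.35 and 6.49 in fah-1. AT2G03750 showed the reverse order, at 8.16, 8.18 and 8.08 in WT, 7.93, 7.94 and 7.90 in F5H-OE and 8.47 and 8.33 in fah-1. How many of all genes showed either order was not counted, so nothing is read from these cases. With each array recentred, 9 genes were higher and 1 lower at this level, against 332 higher and 239 lower in all. The direction over all genes thus depended on the scaling, and nothing is read from the split of the stretch.

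Set directly against fah-1, F5H-OE differed in 10 genes of the chromosome 1 stretch, 4 higher and 6 lower, and in 15 of the chromosome 2 stretch, 9 higher and 6 lower. Over all genes the share was 1.78%, with 0.971% higher and 0.813% lower, and over probe sets 1.97%. This comparison reuses the F5H-OE arrays on which the stretches were chosen, so its counts are a description. The genes also called against WT numbered 9 of the 17 on chromosome 1 and 14 of the 17 on chromosome 2, against 188 of the 317 called over all genes. Called against fah-1 alone were AT1G09230, an RNA-binding protein gene, at 0.77 and AT2G03750 at -0.48 (log2). The log2 fold change of AT1G09440 was 1.25 here, the largest rise on chromosome 1, and that of PDF2.1, 1.05, the largest on chromosome 2. Without fah-1 replicate 1 the counts were 2 and 3, without fah-1 replicate 2 they were 1 and 1, without F5H-OE replicate 1 they were 25 and 23, without F5H-OE replicate 3 they were 5 and 3, and on chromosome 2 without F5H-OE replicate 2 the count was 8.

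Of 243 loci on 23 lists of gene families and roles within the stretches 77 were measured, and 10 of these were called in F5H-OE. The share called was 2.39% over all genes and 6.8% in each stretch. The lists were written with earlier results of these data known, so nothing is read from these counts. Lists with no called member on chromosome 1 were those of 4 transcription factors (0.07 to 0.38), 3 translation genes (-0.20 to -0.11), 6 UDP-glycosyltransferases and reductases (-0.55 to 0.33), the GABA transporter gene AT1G08230 (0.51) and the carotenoid isomerase gene Z-ISO (-0.04, log2 fold changes). Of the 6, AT1G09500 was highest at 0.33, though its mean WT level of 3.52 was below the control level. UGT71C5, a glucosyltransferase of abscisic acid, was lowest of the 6 at -0.55, and its neighbours UGT71C4 and UGT71C3 were at 0.16 and -0.37. It had an adjusted p of 0.0563 by limma and passed in 3 alternatives, at -0.69 without F5H-OE replicate 1, at -0.67 with array weights and at -0.55 with another estimate of spread. WLIM1 (AT1G10200) of the transcription factor list moved from 0.37 to 0.59 and passed without F5H-OE replicate 1. On chromosome 2 they were those of 2 multidrug transporters (-0.20 and -0.18), 2 glycine-rich protein genes, 2 genes of primary metabolism, 2 SKP1-like genes (-0.05 and -0.03), 1 phloem lectin-like gene (-0.07) and AT2G04039 (0.10). The SKP1-like genes and the lectin-like gene exceeded the control level on no array. The redox and stress list of chromosome 1 held GSTU18, which rose, and SRC2 at 0.07. Of its 12 loci only these 2 were measured, and the SE of SRC2 was 0.47. Its median of 0.24, against -0.03 over all genes, is the midpoint of the 2 and describes no shift of the list. The lists for hormones, membrane transport and glutathione S-transferases of chromosome 2 had no measured member.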

How the data were processed

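Stem RNA of 8 pooled samples was measured on 1-colour Affymetrix arrays. The deposited values were intensity values on a linear scale, 6.62 to 19683, made by RMA per the submitters' processing notes. Its version, chip definition and filters were not stated. Since RMA equalises the arrays, a change common to most transcripts cannot be seen. The log2 of the intensity was taken with no pseudocount, after 64 control probe sets had been left out. The model of 3 groups over the 8 arrays was fitted in R 4.3.3 with limma 3.58.1 (eBayes, both sides, Benjamini-Hochberg over 22746 probe sets, threshold 0.05), after a test on simulated data. SEs are moderated, and SDs are between arrays. The labels speak of biological replicates, with no further detail on growth batches.

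The platform annotation paired 13513 probe sets with 1 gene, 503 with several and left 8730 unlisted. Of the first, 13436 matched the TAIR10.1 gene table, which served for names, gene class and gene order only. The 34 called members had 1 such probe set each. Each array's level of no signal was that of its brightest TrpnX control.

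The members, lists, tests and alternatives were chosen with earlier results of these data known. Named were all members called in any comparison, with array values for up to 6 rises and 6 falls per stretch, the 5 smallest p in each direction in fah-1, up to 4 genes per list, and the edge genes. Genes named beside these were chosen after their values were seen. One gene that this rule names in fah-1 is not reported here. Alternatives were 2 other scalings, a filter on dim probe sets, a pseudocount of 16, the mean of a gene's probe sets, fits of the 2 groups alone, another spread, array weights, a replicate block, and omission of each array in turn.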

Additional observations from a re-analysis of the deposited data

How the results depend on the processing

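In F5H-OE against WT the number of called members, 17 in each stretch, moved by more than 1.5 times in these settings (chromosome 1, then chromosome 2): 8 and 11 in a fit of the 2 groups alone, 36 and 39 with array weights, which weighted F5H-OE replicate 1 least, and 3 to 33 and 6 to 26 with 1 array left out in turn. In F5H-OE against fah-1 the counts of 10 and 15 became 41 and 38 with array weights, 1 to 25 and 1 to 23 with 1 array left out, and 6 on chromosome 1 in a fit of the 2 groups alone. In fah-1 against WT the count was 0 in all settings. No call of a named gene changed direction. For calls in F5H-OE against WT this was fixed in advance where an array was left out, since those groups did not overlap. Of the 17 calls per stretch, 14 on chromosome 1 and 12 on chromosome 2 ended in 1 to 12 of 17 alternatives.

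The replicate numbers share no stated litter, batch or day. The deviations of same-numbered arrays correlated above 0.1 in 2 of 7 pairs (-0.06 to 0.33), and not every array correlated best with its own number. Both pairs above 0.1 were of WT with F5H-OE, at 0.17 for replicate 1 and 0.33 for replicate 2, against -0.02 for replicate 3. Differently numbered arrays of these groups correlated at -0.25 to 0.05. The numbers were not taken to pair the samples, but pairing of WT with F5H-OE is not settled by these values. With the replicate number as a block the counts were 7 and 10 in F5H-OE against WT, 5 and 7 in F5H-OE against fah-1 and 0 in fah-1 against WT, and the chromosome 2 median in fah-1 was 0.0034.

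Medians of the stretches lay within 0.1 of 0 in every setting. In fah-1 their sign changed with arrays recentred in both stretches, and on chromosome 2 also with the replicate block and without WT replicate 2 (0.0118) or WT replicate 3 (0.0096). The chromosome 1 median in F5H-OE against WT was -0.0483 with arrays recentred, -0.0426 with array weights and -0.0642 to -0.0143 with 1 array left out. The chromosome 2 median was -0.0669 with arrays recentred, -0.0093 after quantile normalization, 0.0060 without the dimmest 25% of probe sets, -0.0217 with a pseudocount, and -0.0784 to -0.0148 with 1 array left out. In fah-1 against WT the chromosome 1 median was 0.0133 recentred, -0.0052 after quantile normalization, -0.0306 with array weights and -0.0302 to -0.00687 with 1 array left out. The chromosome 2 median was 0.0192 recentred, -0.0013 after quantile normalization, -0.0186 without dim probe sets, -0.0067 with a pseudocount, -0.0153 with the mean of a gene's probe sets, -0.0222 with array weights, and -0.0398 to 0.0118 with 1 array left out. The causes were not tested. Signal over background limits the chromosome 2 stretch most, where 46 of 250 genes never exceeded the controls.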
